A study of Homo sapiens with 10 samples.

Results

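The clustered protocadherins are 60 genes that lie side by side on chromosome 5 (chr5:140786136-141512981, hg38), and their transcripts were compared between HCT116 cells and a DNMT1 knock-out derivative. The genes were taken by symbol, as every gene on chromosome 5 whose name begins with PCDHA, PCDHB or PCDHG followed by a digit, or by A, B or C and a digit, and they were matched by Ensembl identifier to the 58884 genes of the count tables. Of the 60, 16 belong to the alpha, 20 to the beta and 24 to the gamma cluster. The annotation lists 53 as protein-coding and 6 as pseudogenes, and the remaining one, PCDHB1-AS1, is a lncRNA that fits the rule by its symbol and had no counts.

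HCT116 is a line of colorectal carcinoma cells. The derivative, named DNMT1 KO throughout, was made from it by deletion of exons of DNMT1, the maintenance DNA methyltransferase, and according to the study it retains a low level of a truncated protein, so that it is a hypomorph. No treatment was applied, and both lines grew in the same medium with 10% serum. Poly(A) RNA was sequenced from 6 HCT116 libraries (replicates 1, 2, 3, 7, 8 and 9) and 4 DNMT1 KO libraries (replicates 1 to 4), which the study describes as independent cultures. The DNMT1 KO cells are a single derivative line, so that loss of DNMT1 and any other difference between the lines cannot be told apart.

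Clustered protocadherins are cadherin-like receptors of the cell surface, best known from neurons, where each cell uses a few of them and like molecules bind each other across membranes. Each alpha and gamma gene has its own promoter and its own large variable exon, which is spliced to constant exons shared by the whole cluster, whereas each beta protein is encoded by a single exon. Choice of a promoter is known to depend on its DNA methylation and on CTCF and cohesin, and many of the promoters hold a conserved element with the core CGCT. In colorectal and other carcinomas the locus is known for DNA methylation over long stretches.

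The promoters of the members that the results turn on are printed here because they carry the core CGCT, the methylatable CpG sites and the differences between neighbouring genes. They are the 250 bases before the RefSeq start of each gene (GRCh38.p14), written 5′ to 3′ with CGCT, and its reverse complement AGCG, in capitals.
PCDHAC1 promoter, chr5:140926049-140926298, plus strand: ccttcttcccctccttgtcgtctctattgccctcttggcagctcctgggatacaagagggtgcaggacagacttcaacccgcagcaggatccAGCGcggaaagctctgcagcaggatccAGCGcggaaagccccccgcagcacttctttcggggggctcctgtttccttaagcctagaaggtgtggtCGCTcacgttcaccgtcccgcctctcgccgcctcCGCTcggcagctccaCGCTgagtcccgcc
PCDHAC2 promoter, chr5:140966226-140966475, plus strand: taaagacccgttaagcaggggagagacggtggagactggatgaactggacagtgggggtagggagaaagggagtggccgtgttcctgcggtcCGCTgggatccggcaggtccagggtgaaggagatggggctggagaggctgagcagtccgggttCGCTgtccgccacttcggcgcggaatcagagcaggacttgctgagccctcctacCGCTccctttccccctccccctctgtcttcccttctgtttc
PCDHB7 promoter, chr5:141172394-141172643, plus strand: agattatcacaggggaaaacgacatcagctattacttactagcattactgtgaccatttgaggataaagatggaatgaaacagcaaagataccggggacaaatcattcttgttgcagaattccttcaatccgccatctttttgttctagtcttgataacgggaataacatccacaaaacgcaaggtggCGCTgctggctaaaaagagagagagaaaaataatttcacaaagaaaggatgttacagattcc
PCDHB14 promoter, chr5:141223093-141223342, plus strand: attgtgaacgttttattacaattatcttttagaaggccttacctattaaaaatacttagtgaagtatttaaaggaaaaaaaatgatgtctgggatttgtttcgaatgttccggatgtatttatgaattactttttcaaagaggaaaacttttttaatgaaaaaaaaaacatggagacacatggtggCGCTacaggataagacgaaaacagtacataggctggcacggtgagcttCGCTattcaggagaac
PCDHGA9 promoter, chr5:141402528-141402777, plus strand: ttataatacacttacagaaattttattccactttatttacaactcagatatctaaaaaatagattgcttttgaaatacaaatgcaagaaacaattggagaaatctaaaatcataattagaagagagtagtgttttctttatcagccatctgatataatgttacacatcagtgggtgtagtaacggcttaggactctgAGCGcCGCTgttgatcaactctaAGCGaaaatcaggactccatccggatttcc
PCDHGA10 promoter, chr5:141412737-141412986, plus strand: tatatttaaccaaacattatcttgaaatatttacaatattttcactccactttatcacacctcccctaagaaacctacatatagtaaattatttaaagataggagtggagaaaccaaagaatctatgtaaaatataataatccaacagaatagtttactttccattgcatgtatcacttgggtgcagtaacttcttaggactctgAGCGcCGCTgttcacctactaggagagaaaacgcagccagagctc
PCDHGB7 promoter, chr5:141417427-141417676, plus strand: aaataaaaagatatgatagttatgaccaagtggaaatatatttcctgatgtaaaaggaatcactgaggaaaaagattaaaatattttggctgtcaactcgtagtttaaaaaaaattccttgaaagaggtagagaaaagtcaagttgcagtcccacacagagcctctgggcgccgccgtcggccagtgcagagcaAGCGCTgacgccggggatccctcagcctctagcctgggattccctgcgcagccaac
A RefSeq promoter was found for 47 of the 60 members. Only the core CGCT was searched for, and a copy of it does not show the whole element. CGCT was present on either strand in 45 of those 47 (95.7%), against 64.3% of the promoters of all 27305 genes in the table. On the strand of the gene, and starting 100 to 30 bases before the start, it was present in 43 of 47 members (91.5%) and in 21.7% of all promoters, but this stretch was chosen after the members' sequences had been seen. The nearest copy before the start lay at -14 in PCDHAC1, -41 in PCDHAC2, -62 in PCDHB7, -16 in PCDHB14, -48 in PCDHGA9, -40 in PCDHGA10 and -54 in PCDHGB7. PCDHGA9 and PCDHGA10 shared a run of 24 bases around it, cttaggactctgAGCGcCGCTgtt, which no other promoter of the table held on the strand of its gene. Members had a median of 6 CpG sites in these 250 bases, against 11 over all promoters. The C-type genes, the last genes of the alpha and gamma clusters and set apart from the others by sequence, had more, with a median of 14 in the 4 that were matched against 5 in the other 43 members. PCDHAC1 had 18 CpG sites, PCDHAC2 had 13, and PCDHGA10 had 3.

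The libraries held 26700853 to 85991812 counts assigned to genes, and levels are given as CPM, the counts per 1000000 of the scaled library total. The targeted gene was checked first. DNMT1 stood at 153 ± 64.2 CPM (SD, n = 6) in HCT116 and at 19.5 ± 3.68 CPM (SD, n = 4) in DNMT1 KO cells, without overlap. Epithelial markers set out for this line summed to 2520 to 6130 CPM in HCT116 and 645 to 1431 CPM in DNMT1 KO libraries. Of 11, 7 could be tested, and EPCAM, CDH1, KRT8 and KRT18 were lower and VIL1 higher in DNMT1 KO cells. KRT19 and CDX2 were not called. CEACAM5, CEACAM6, CDX1 and LGALS4 were near 0 in both lines, and 5 of the 11 were under 1 CPM in both. Neural markers summed to 71.6 to 251 and 66.0 to 179 CPM (8 of 12 tested, 3 higher and 1 lower), and fibroblast markers to 6.47 to 19.8 and 16.6 to 21.4 CPM (4 of 6 tested, 3 higher). The part of these differences in the protocadherin results was not tested. The labels name 4 batches, of which batch 1 (replicate 1 of each line) and batch 2 (replicates 2 and 3 of each) hold both lines, whereas batch 3 is DNMT1 KO replicate 4 alone and batch 4 is HCT116 replicates 7, 8 and 9. DNMT1 KO replicate 4 had the lowest total of all libraries (26700853 counts). It also stood apart in that 39.9% of its gene counts from 1 to 10 were even numbers, against 64.4% to 70.0% in the other 9 libraries. The cause was not tested, and small raw counts may not stand for the same unit in all libraries.

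Most clustered protocadherin genes had few or no counts in either line. Of the 60 members, 9 had no count in any of the 10 libraries. Among these were 7 of the 53 protein-coding members (13.2%), a share close to the 13.9% of all protein-coding genes in the tables. Only 10 members passed the filter on low counts (2 alpha, 3 beta and 5 gamma genes, all of them protein-coding), which is 18.9% of the protein-coding members, against 67% of all protein-coding genes. The 50 others had a median of 12 counts over all libraries together, and the highest of them, PCDHB7, had 80.

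These counts describe the variable exons. The protein-coding alpha genes share 2866 to 5672 exon bases with other genes, among them 14 or 15 members. The protein-coding gamma genes share 2177 to 4447 bases, with 21 members among the genes that share them. Protein-coding beta genes share at most 1247 bases, which in PCDHB16 are shared with 3 genes outside the family and 0 members. PCDHB2 shares 620 bases and PCDHB1 137 bases with 1 member, the antisense PCDHB1-AS1. PCDHA2 shares 3431 exon bases with other alpha genes and had no count in any library while PCDHAC2 had 133 or more, and PCDHGB4 shares 4447 bases and also had none, so that reads of the constant exons were not credited to these genes. Levels are therefore compared between genes as CPM per kilobase of exon that no other gene shares. Exact copies of 50-base stretches elsewhere in the locus, from which a short read may be lost at the mapping filter, made up a median of 6.89% of a member's longest unshared stretch. The share was 0% in PCDHAC1 and PCDHAC2, 6.3% in PCDHGA10, 11.9% in PCDHB14 and 14.9% in PCDHB7, with a maximum of 45.3% in PCDHB8.

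**Figure D1:**
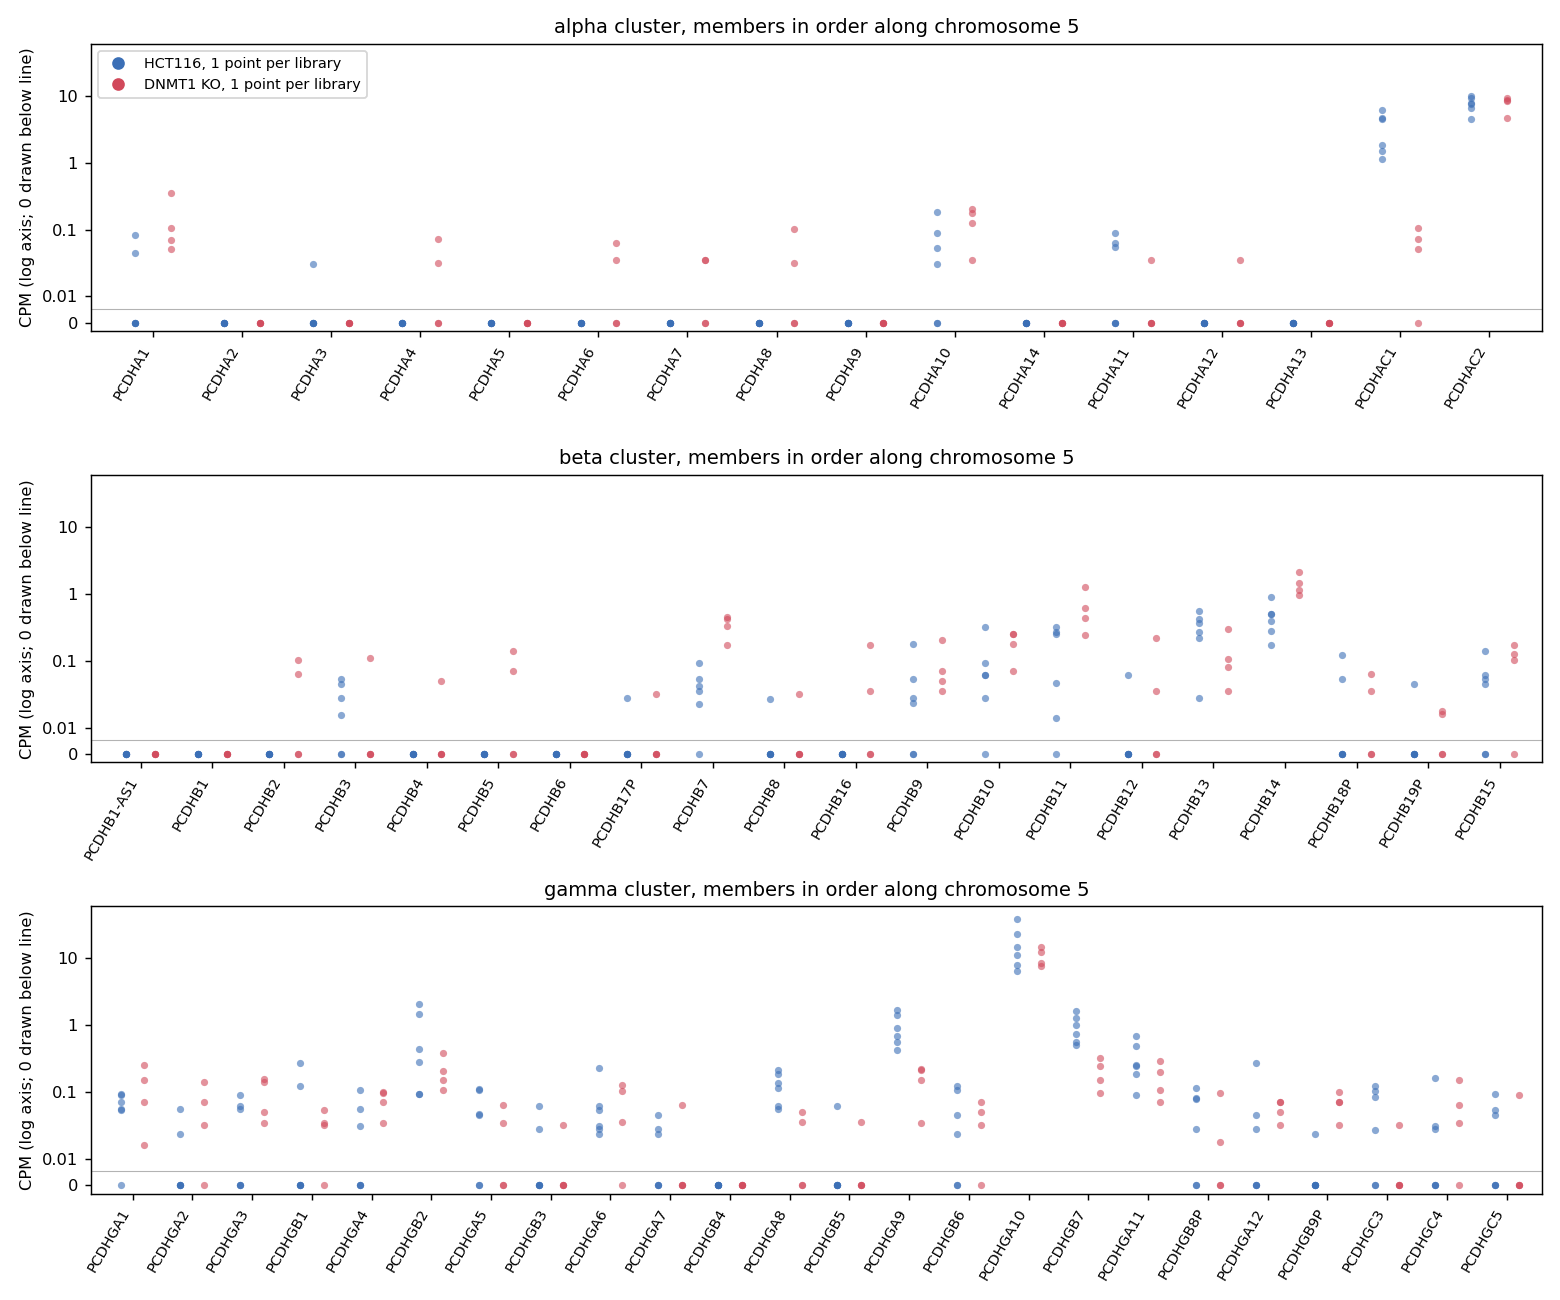
CPM (log axis, values of 0 drawn below the grey line) of the 60 clustered protocadherin genes in order along chromosome 5, with 1 point for each of 6 HCT116 and 4 DNMT1 KO libraries. PCDHAC2 and PCDHGA10 lie highest in both lines, PCDHAC1 is high in HCT116 alone, and most others lie under 0.5 CPM.

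Per kilobase, PCDHGA10 and PCDHAC2 stood above all other members in both lines. PCDHGA10 was at 3.85 ± 2.74 CPM per kb in HCT116 and 2.45 ± 0.773 in DNMT1 KO cells, and PCDHAC2 at 2.37 ± 0.603 and 2.43 ± 0.663 (SD, n = 6 and n = 4), levels that do not differ beyond their spread. In HCT116 cells PCDHAC1 came next at 0.816 ± 0.512 CPM per kb, followed by PCDHGA9 at 0.370 ± 0.197, PCDHGB7 at 0.340 ± 0.155 and PCDHGB2 at 0.285 ± 0.321, whose ranges overlap. In DNMT1 KO cells the next after the leading pair was PCDHB14 at 0.306 ± 0.107 CPM per kb, and PCDHAC1 had fallen to 0.0139 ± 0.0107.

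In the comparison of DNMT1 KO with HCT116 cells by edgeR's quasi-likelihood test, adjusted over 19279 genes and with the threshold set at 0.05 for the adjusted p and at a change of 1 on the log2 scale, 1 of the 10 tested members was higher and 3 were lower. Over all genes tested, 7.42% were called higher and 6.49% lower (13.9% in either direction). PCDHAC1, PCDHGA9 and PCDHGB7 fell and PCDHB14 rose, and these were also the 4 tested members whose libraries did not overlap between the lines (background 8.4% with all DNMT1 KO libraries above and 6.79% with all below). The median log2 fold change was -1.07 over the 10 tested members and -0.07 over all genes. A member high in 1 line alone can pass the filter through that line, so that the 10 do not stand for the family. Without the filter, 51 members had a value, and 4 were called higher and 3 lower, against 5.58% and 4.39% of all genes. Within batches 1 and 2, with batch as a term, 1 was higher (PCDHB7) and 5 were lower, against 7.37% and 6.98%. In batch 2 alone, edgeR called 0 higher (2 at an unadjusted p under 0.05) and 2 lower (PCDHAC1 and PCDHGA9), against 4.17% and 4.08%. DESeq2 called the same 4 members as edgeR over all libraries.

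**Figure D2:**
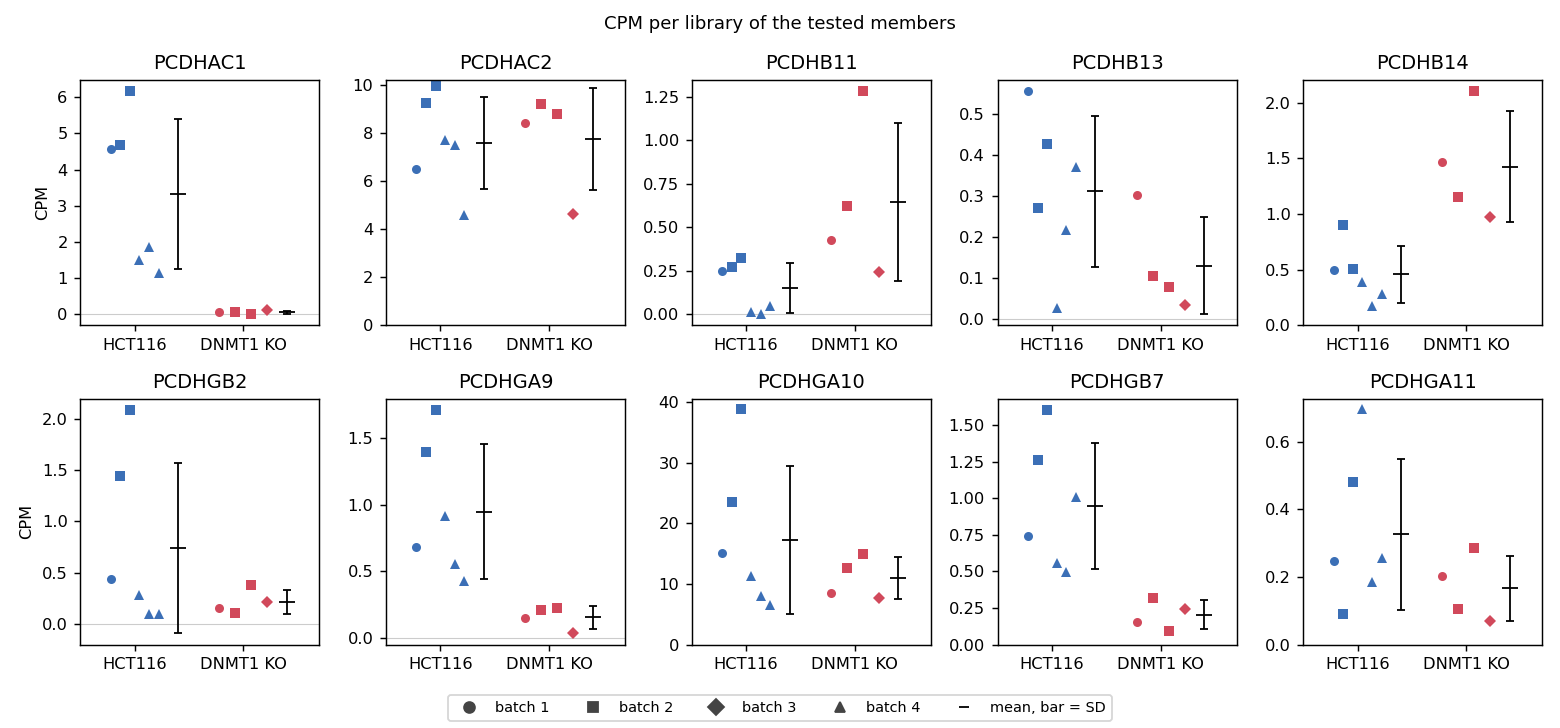
CPM of the 10 tested members in each library, on axes of their own scale, with the mean and SD of each line in black and the batch as the symbol. PCDHAC1, PCDHGA9 and PCDHGB7 are lower and PCDHB14 is higher in every DNMT1 KO library than in any HCT116 library.

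PCDHAC1 (ENSG00000248383, chr5:140926369-141012344), a C-type gene of the alpha cluster, showed the largest change. HCT116 libraries ranged from 1.15 CPM over a median of 3.22 to 6.18 CPM, or 99 to 231 counts. DNMT1 KO replicates 1 to 4 had 0.0505, 0.0711, 0 and 0.104 CPM, which are 2, 4, 0 and 3 counts. Every HCT116 library was thus far above every DNMT1 KO library, although the DNMT1 KO values are at or near the level of 3 counts, which is 0.0476 to 0.104 CPM in those libraries. The log2 fold change was -5.96 (SE 0.80, adjusted p = 9.2e-05). Within batches 1 and 2, with batch as a term, it was -6.97 (SE 0.71, adjusted p = 0.000334), and in batch 2 alone it was -7.21 (SE 0.96, adjusted p = 0.00639).

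PCDHAC2 (ENSG00000243232, chr5:140966470-141012347), the next gene along the chromosome and the last of the alpha cluster, stood at the same level in both lines within their spread. It ranged from 4.58 over a median of 7.62 to 9.95 CPM in HCT116 and had 8.41, 9.22, 8.79 and 4.62 CPM in DNMT1 KO cells. The libraries overlapped throughout, and the log2 fold change was 0.04 (SE 0.29, adjusted p = 0.952). The estimate took the other sign, near 0, when HCT116 replicate 9 (-0.073), DNMT1 KO replicate 2 (-0.057) or DNMT1 KO replicate 3 (-0.0095) was left out.

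The make-up of the alpha cluster counts differed accordingly. PCDHAC1 held 27.9% ± 10.5 of the alpha counts in HCT116 (SD, n = 6) and 0.857% ± 0.903 in DNMT1 KO cells (n = 4). PCDHAC2 held 71.0% ± 11.0 and 94.5% ± 0.755. In the DNMT1 KO library without a PCDHAC1 count, 0 of 592 alpha counts leaves a share of up to 0.645% (Wilson interval, 95%, counting error only). The interval takes counts as independent. In this library, DNMT1 KO replicate 3, 64.8% of gene counts from 1 to 10 were even numbers, so the interval may be too narrow. The summed alpha counts were 11.0 ± 3.74 CPM in HCT116 and 8.22 ± 2.24 CPM in DNMT1 KO cells. The remaining alpha genes stayed low in both: 5 had no count at all, and 7 of the 9 others that were not tested had the higher mean in DNMT1 KO cells (67.3% among the protein-coding genes that the filter left out), with 33 counts over the 6 HCT116 libraries and 83 over the 4 DNMT1 KO libraries.

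**Figure D3:**
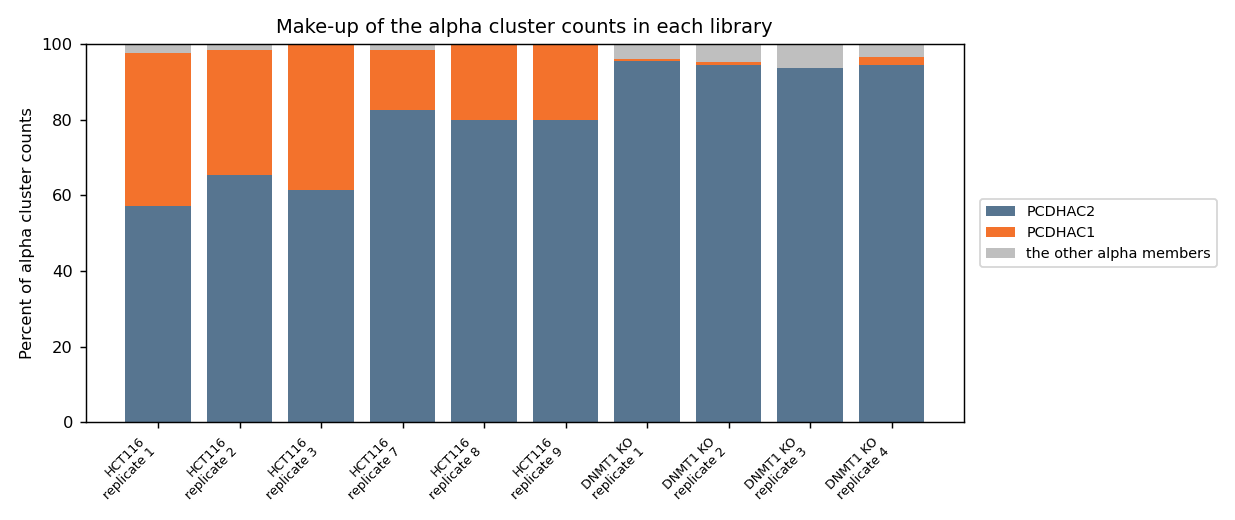
Percent of all alpha cluster counts held by PCDHAC2, PCDHAC1 and the other alpha genes in each library. PCDHAC1 held 16.0% to 40.3% in HCT116 libraries and 0% to 2.13% in DNMT1 KO libraries.

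In the beta cluster 1 of the 3 tested genes was called, and it rose. PCDHB14 (ENSG00000120327, chr5:141222932-141227759) ranged from 0.170 over a median of 0.442 to 0.902 CPM in HCT116 and had 1.46, 1.16, 2.11 and 0.973 CPM in DNMT1 KO cells. The lowest DNMT1 KO library was above the highest HCT116 library, by a small margin. The log2 fold change was 1.66 (SE 0.46, adjusted p = 0.0212), but the call was lost without DNMT1 KO replicate 1 or 3. It was also lost within batches 1 and 2 (1.32, SE 0.47, adjusted p = 0.0999).

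PCDHB11 (ENSG00000197479), which lies 3 genes before PCDHB14, ranged from 0 over a median of 0.147 to 0.321 CPM in HCT116 and had 0.429, 0.622, 1.29 and 0.243 CPM in DNMT1 KO cells. The lowest DNMT1 KO library lay among the HCT116 libraries, and the log2 fold change of 2.23 (SE 0.83, adjusted p = 0.0880) did not pass. It passed without HCT116 replicate 3 and without the filter. PCDHB13, the tested gene between them, pointed down instead, with a mean of 0.312 ± 0.184 CPM in HCT116 and 0.131 ± 0.119 CPM in DNMT1 KO cells (log2 fold change -1.21, SE 0.73, adjusted p = 0.310).

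PCDHB7 (ENSG00000113212, chr5:141172619-141176383) was too low for the filter. It had 0 to 0.0928 CPM in HCT116, from 0 to 3 counts in a library, and 0.455, 0.427, 0.333 and 0.174 CPM in DNMT1 KO cells, from 18, 24, 21 and 5 counts. The lines did not overlap. Among the untested members this also held for PCDHGB9P, higher in DNMT1 KO cells (2 counts in HCT116, 12 in DNMT1 KO). It held for PCDHGA8 as well, which was lower (38 and 4 counts). The share of untested genes without overlap was not worked out. PCDHB7 was called higher without the filter (log2 fold change 3.10, SE 0.77, adjusted p = 0.00493) and within batches 1 and 2, where it passed the filter (2.88, SE 0.68, adjusted p = 0.0210). PCDHB10, the other named beta gene that was not tested, overlapped between the lines, with 0 to 0.316 CPM in HCT116 and 0.0695 to 0.254 CPM in DNMT1 KO cells.

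Over the whole beta cluster the summed level was 1.23 ± 0.631 CPM in HCT116 (range 0.527 to 2.10) and 3.23 ± 1.46 CPM in DNMT1 KO cells (range 1.63 to 5.16), a log2 ratio of 1.39, given without a test. Of the 14 beta genes, pseudogenes included, that had a count but were not tested, 13 had the higher mean in DNMT1 KO cells. The share was 58.5% among all genes and 67.3% among the protein-coding genes that the filter left out. Within batches 1 and 2 it was 12 of 14 beta genes, against 65.0% and 70.8%. Some of these directions rest on few counts or mainly on 1 library. PCDHB3 had 7 counts in each line, and PCDHB17P and PCDHB19P had 2 in each. DNMT1 KO replicate 3, part of batch 2, held 7 of 7 DNMT1 KO counts in PCDHB3, 14 of 16 in PCDHB12 and 13 of 20 in PCDHB9. PCDHB2, PCDHB4, PCDHB5 and PCDHB16 had counts in DNMT1 KO libraries alone, from 2 to 12 counts in all, and so did 5 alpha genes, with 2 to 6. The reverse held for 1 member, PCDHA3, with 1 count in HCT116. The share of all genes with counts in 1 line alone was not worked out, so these numbers are not read as a result. PCDHB16 was called higher without the filter, but 11 of its 12 counts came from DNMT1 KO replicate 3.

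In the gamma cluster 2 weakly expressed genes fell on either side of the strongest one. PCDHGA9 (ENSG00000261934, chr5:141402932-141512979) ranged from 0.430 over a median of 0.800 to 1.71 CPM in HCT116 and had 0.152, 0.213, 0.222 and 0.0348 CPM in DNMT1 KO cells. Every DNMT1 KO library lay below every HCT116 library, with 1 to 14 counts in each. The log2 fold change was -2.52 (SE 0.57, adjusted p = 0.00649), and it was -2.63 (SE 0.49, adjusted p = 0.00743) within batches 1 and 2.

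PCDHGB7 (ENSG00000254122, chr5:141417645-141512979) ranged from 0.496 over a median of 0.877 to 1.60 CPM in HCT116 and had 0.152, 0.320, 0.0952 and 0.243 CPM in DNMT1 KO cells. The lines again did not overlap. The log2 fold change was -2.21 (SE 0.52, adjusted p = 0.00821) and -2.63 (SE 0.59, adjusted p = 0.0169) within batches 1 and 2, whereas in batch 2 alone it did not pass (-2.78, SE 0.75, adjusted p = 0.0693).

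PCDHGA10 (ENSG00000253846, chr5:141412987-141512979) lies between PCDHGA9 and PCDHGB7 and had the highest mean of the family. It ranged from 6.51 over a median of 13.1 to 38.8 CPM in HCT116 and had 8.44, 12.6, 15.0 and 7.72 CPM in DNMT1 KO cells. The DNMT1 KO libraries lay within the HCT116 range, and the log2 fold change was -0.65 (SE 0.45, adjusted p = 0.391). Within batches 1 and 2 the difference did pass, at -1.06 (SE 0.29, adjusted p = 0.0388). PCDHGA10 held 80.7% ± 4.33 of the gamma counts in HCT116 and 87.4% ± 1.11 in DNMT1 KO cells, and the unshared exon of PCDHGB7 begins at base 141417645, shortly after that of PCDHGA10 ends at base 141417448.

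PCDHGB2 (ENSG00000253910), further upstream, ranged from 0.0929 over a median of 0.356 to 2.09 CPM in HCT116 and had 0.152, 0.107, 0.381 and 0.209 CPM in DNMT1 KO cells. It did not pass over all libraries (log2 fold change -1.75, SE 0.87, adjusted p = 0.212) and passed within batches 1 and 2 (-2.47, SE 0.63, adjusted p = 0.0303). PCDHGA11 overlapped between the lines, at 0.326 ± 0.223 and 0.166 ± 0.0974 CPM (log2 fold change -0.93, SE 0.61, adjusted p = 0.360).

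The gamma C-type genes PCDHGC3, PCDHGC4 and PCDHGC5, which stand at the end of the cluster, were almost without reads. They had 22, 21 and 17 counts over all 10 libraries, and no library reached 0.2 CPM for any of them. The summed gamma level was 20.9 ± 14.2 CPM in HCT116 and 12.5 ± 3.81 CPM in DNMT1 KO cells (log2 ratio -0.74, no test). Of the 18 gamma genes, pseudogenes included, that had a count but were not tested, 6 had the higher mean in DNMT1 KO cells. The share was 58.5% among all genes and 67.3% among the protein-coding genes that the filter left out. Within batches 1 and 2 it was 9 of 18 gamma genes, against 65.0% and 70.8%.

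**Figure D4:**
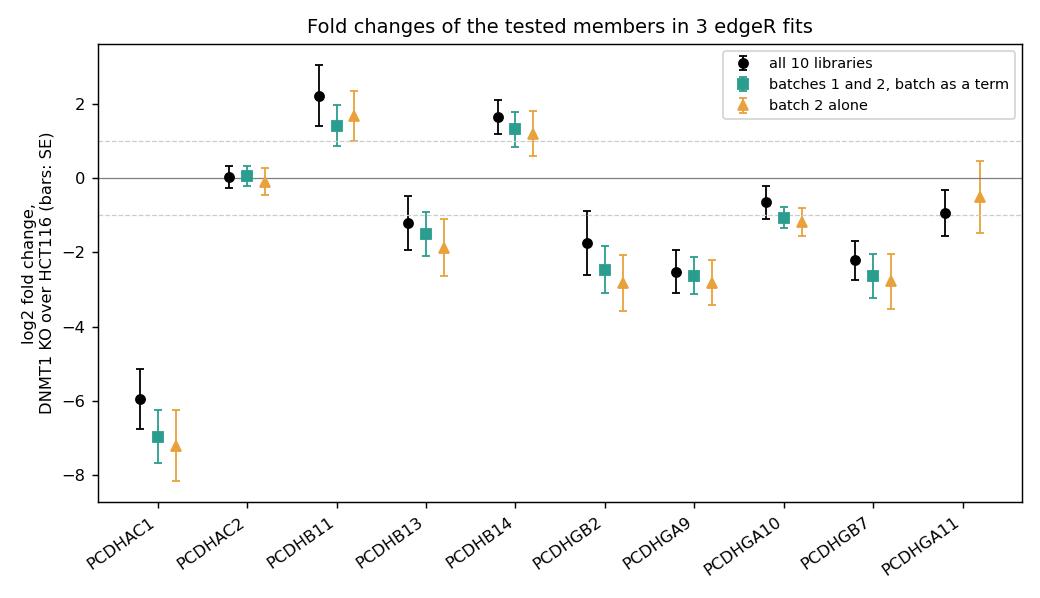
Log2 fold change (DNMT1 KO over HCT116, bars SE) of the 10 tested members over all 10 libraries, within batches 1 and 2 with batch as a term, and in batch 2 alone, with dashed lines at 1 and -1. PCDHGA11 has no value in the second, where it did not pass the filter. PCDHAC1 lies between -7.21 and -5.96 and PCDHAC2 near 0 in each.

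HCT116 libraries differed from each other in some of the same genes. Between batch 4 and batches 1 and 2, all HCT116, 4 of the 10 tested members were called, all lower in batch 4, where 8.03% of all genes were called, 3.09% higher and 4.94% lower. These were PCDHAC1 (1.50 against 5.15 CPM, log2 fold change -1.80, adjusted p = 0.0178), PCDHB11 (0.0201 against 0.280 CPM, -3.57, adjusted p = 0.0283), PCDHGB2 (0.155 against 1.32 CPM, -3.11, adjusted p = 0.0185) and PCDHGA10 (8.57 against 25.8 CPM, -1.61, adjusted p = 0.0226), by edgeR's quasi-likelihood test. The calls did not all hold when 1 library was left out. Without HCT116 replicate 2, 7, 8 or 9 edgeR called 0 of the tested members (4 or 5 had an unadjusted p under 0.05, all lower). Without replicate 3 it called PCDHAC1 alone, and without replicate 1 all 4 stayed called. In all 4 the batch 4 libraries lay below those of batches 1 and 2, as in PCDHAC1 (1.15 to 1.86 against 4.58 to 6.18 CPM). These 4 were picked by the same comparison, and the share of all genes that separate in this way was not worked out. Their separation is therefore not read as a further result. The lowest HCT116 library of batch 4 still had 1.15 CPM of PCDHAC1, against 0.104 CPM in the highest DNMT1 KO library.

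Of 21 genes that flank or separate the clusters on 5q31.3, 18 were tested, and PCDH1, which encodes a protocadherin outside the clusters, was called lower while no other was called. The share called over all genes tested was 13.9%. TAF7, a subunit of the general transcription factor TFIID whose gene lies between the beta and gamma clusters, stood at 155 ± 45.8 CPM in HCT116 and 179 ± 37.6 CPM in DNMT1 KO cells (log2 fold change 0.21, SE 0.26, adjusted p = 0.661). Over the 18, the log2 fold changes had a median of -0.18.

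Among 12 protocadherin genes outside the clusters, 4 were tested, 2 were called lower and 1 higher, against 13.9% of all genes called in either direction. The median log2 fold change of the 4 was -1.06, and 8 of the 12 were under 1 CPM in both lines. PCDH1 fell from 131 ± 89.3 to 10.1 ± 6.82 CPM (log2 fold change -3.70, SE 0.58, adjusted p = 0.000352). PCDH7 fell from 172 ± 57.0 to 26.7 ± 7.39 CPM (-2.68, SE 0.33, adjusted p = 3.59e-05). PCDH19 rose from 0.577 ± 0.300 to 1.83 ± 0.810 CPM (1.66, SE 0.46, adjusted p = 0.0222), but this call was lost without DNMT1 KO replicate 2 or 3 and in batch 2 alone (2.76, adjusted p = 0.0612). None of the 3 overlapped between the lines (background 8.4% with all DNMT1 KO libraries above and 6.79% with all below).

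Of 27 genes for CTCF, cohesin, chromatin and DNA methylation factors, 26 were tested, 1 was higher and 2 were lower, DNMT1 among them (log2 fold change -2.97, SE 0.33, adjusted p = 1.74e-05), with a median log2 fold change of 0.14. Over all genes tested 13.9% were called, and 3 of 26 is close to that share. TET1, an enzyme that oxidises 5-methylcytosine, rose from 5.29 ± 1.69 to 18.1 ± 2.83 CPM (1.77, SE 0.28, adjusted p = 0.000366). PDS5B, a cohesin-associated factor, fell from 19.8 ± 5.71 to 8.11 ± 1.56 CPM (-1.29, SE 0.28, adjusted p = 0.00492), but it did not pass within batches 1 and 2 (-1.05, adjusted p = 0.0744) or in batch 2 alone (-0.81, adjusted p = 0.350). EHMT2 is listed at 0 in every library. Whether this 0 comes from the cells or from the mapping was not tested, so it is not read as absence of expression. Of 22 genes for proteins that cleave protocadherins, bind their cytoplasmic tails or act downstream, all were tested and PTK2B, a tyrosine kinase of the focal adhesion kinase family, was called, lower in DNMT1 KO cells (-1.69, SE 0.52, adjusted p = 0.0366). That call was lost without HCT116 replicate 1, 2 or 3, without DNMT1 KO replicate 1, 2 or 4, and with scaling by library totals alone. Without replicate 2 of either line, and with library totals alone, MARCKS, a substrate of protein kinase C, was called instead, higher in DNMT1 KO cells. Their log2 fold changes had a median of -0.05.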

How the data were processed

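The deposited tables hold raw gene counts, 1 table for each library. According to the authors' methods and the labels, 50-base paired reads of stranded poly(A) libraries were trimmed (Trim Galore 0.4.1, after FastQC 0.11.4), aligned to hg38 with Bowtie2, which does not splice reads, filtered on mapping quality and counted over exons with featureCounts, with no strand option stated. Reads across exon junctions may therefore be lost, antisense reads cannot be told apart, and bases shared by several genes are not credited.

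Libraries were grouped by genotype label. Counts of 19279 genes kept by filterByExpr (minimum count 10) were scaled by TMM and tested in edgeR 4.0.16 (R 4.3.3) with the quasi-likelihood test and group as the term. The study also used edgeR, TMM, filterByExpr and a linear model with F-tests, but it does not state the terms. It also used more HCT116 cultures. Adjustment was by Benjamini-Hochberg across all tested genes, and CPM uses the TMM-scaled totals. Scripts were tested on simulated data. DESeq2 1.42.0, other scalings, no filter, batch, halved counts and leaving out each library were the alternatives. Same-numbered libraries of the 2 lines departed from their means with a correlation of 0.55 for replicate 1, -0.27 for replicate 2 and 0.37 for replicate 3, so the numbers were not taken to pair the libraries. The members and lists were chosen with earlier results of these data known. Named members are the 12 with the highest mean CPM over all libraries, the C-type genes, and called members. Of each other list up to 4 called genes are named, those with the largest changes, and TAF7 was added after its values were seen. 3 tables of HCT116 replicates without a sample label were not used. The result of 1 further marker list is not reported here.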

Additional observations from a re-analysis of the deposited data

Results flagged for a closer look

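Library values were examined in 36 sets (15 named members and the 3 cluster sums, in each line). Of these, 4 held a library that stood away from the others by Dixon's test. Chance would give about 1.8 for normally distributed values, but many of these sets hold few counts, so 4 and 1.8 cannot be compared. PCDHB10 was at 0.316 CPM in HCT116 replicate 2, while the other HCT116 libraries had 0 to 0.0929 CPM. PCDHGC4 was at 0.160 CPM in HCT116 replicate 3, while the others had 0 to 0.0310 CPM. PCDHGC3 was at 0.0317 CPM in DNMT1 KO replicate 3 and PCDHGC5 at 0.0889 CPM in DNMT1 KO replicate 2, while the other DNMT1 KO libraries had no count. These values stand for 2 to 14 counts. Where all other libraries have no count, as for PCDHGC3 and PCDHGC5, the gap is the whole range. Such a library is flagged whatever its value, so those flags carry no information.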

How the results depend on the processing

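PCDHAC1 and PCDHGA9 stayed called lower under all 19 alternatives, PCDHAC1 between -7.21 and -5.44 and PCDHGA9 between -2.82 and -2.24 on the log2 scale, and PCDHGB7 under all but batch 2 alone. The number of members called higher was 4 without the filter on low counts (PCDHB7, PCDHB11, PCDHB14 and PCDHB16, with a background of 5.58%), 0 in edgeR with batch as a term over all libraries and 0 in batch 2 alone (2 each at an unadjusted p under 0.05), and 0 to 2 when 1 library was left out (1 to 3 at an unadjusted p under 0.05). The number called lower was 5 with batch as a term, whether over all libraries or over batches 1 and 2, where PCDHGA10 and PCDHGB2 were added. With batch as a term, batches 3 and 4 hold 1 line each and do not inform the fold change. PCDHAC2 was at -0.088 in batch 2 alone and between -0.073 (without HCT116 replicate 9) and 0.21 when 1 library was left out, and it was also at or below 0 without DNMT1 KO replicate 2 (-0.057) or 3 (-0.0095). Leaving out 1 library gave 0 to 1 called signalling partners (MARCKS in place of PTK2B without replicate 2 of either line) and, between HCT116 batches, 0 to 4 called members. The labels put replicate 1 of both lines in batch 1 and replicates 2 and 3 of both in batch 2, and give no other link between libraries of the same number. With the replicate number as a block over replicates 1 to 3, 1 member was higher (PCDHB7) and 4 were lower (PCDHAC1, PCDHGA9, PCDHGB2 and PCDHGB7), and PCDHB14 was at 1.31 with an adjusted p of 0.153. The calls of PDS5B and PCDH19 were also lost with the block. A test of the cluster sums without the filter was not run, since the sums use no filter. Scaling by library totals alone moved the median of all genes to 0.14. Low counts limit what can be said of the family: 50 of 60 members had too few to test, and with halved counts 7 members had a value in place of 10. The part of sequencing depth in this was not tested. Intervals cover counting error only and take counts as independent.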
